A study of Mus musculus with 2 samples.

Results

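Neutrophil granule genes were followed in the early rib repair callus as 10 of the 31054 features measured, namely *Elane*, *Prtn3*, *Mpo*, *Ctsg*, *Ngp*, *Camp*, *Ltf*, *Lcn2*, *S100a8* and *S100a9*. The members were chosen by name, with no measured value in the rule but with earlier results of these data known. All 10 were found in both libraries. The single-cell RNA sequencing (scRNAseq) compared 1 control library, from Sox9:CreER;R26:tdT;Smof/+ mice, with 1 *Smo* cKO library, from Sox9:CreER;R26:tdT;Smof/f mice, to ask how the callus is made up when Hedgehog (Hh) signaling is lost in the *Sox9* lineage. Each library pooled the calluses of 3 mice, taken 4 days after a 3 mm rib resection. The paper used mice of 8 to 12 weeks and of both sexes across its experiments, and does not give the sexes in each library. Both genotypes carried the Cre, the tdTomato reporter and at least 1 floxed *Smo* allele, and both received tamoxifen on 3 consecutive days in the week before injury. The CreER is driven by *Sox9*, so neutrophils are not the cells in which the label places the deletion. With 1 library per genotype there was no test between genotypes, and every interval below is a 95% interval that covers counting error only. Paired values are given for the control library first and the *Smo* cKO library second unless stated, and levels are in CPM, the UMIs (unique molecular identifiers) of a gene per 1000000 UMIs of the cell class.

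Neutrophils load their granules in order as they mature in the marrow. Azurophil granules are filled first, at the promyelocyte stage, with the serine proteases neutrophil elastase, proteinase 3 and cathepsin G and with myeloperoxidase. Specific granules follow with lactoferrin, lipocalin, cathelicidin and neutrophilic granule protein, and the cytosol fills with the S100a8/S100a9 heterodimer, calprotectin. Azurophil transcripts are switched off early, so a cell that has left the marrow usually carries the proteins and not the messages.

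The 4 azurophil genes share a short upstream element. The sequences below lie upstream of each start site as RefSeq gives it on GRCm38.p6, on the strand of the gene, and the capitals mark AGGAAGT, a purine-rich sequence of the kind that ETS factors such as PU.1 bind. They are shown because these 4 genes were detected in the same cells, as described with their levels.

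*Elane*, chr10:79886217-79886245, plus strand: gtgtcccagggAGGAAGTagggctgtggc
*Prtn3*, chr10:79879562-79879590, plus strand: aaactggaaggAGGAAGTgggacccacag
*Mpo*, chr11:87793550-87793578, plus strand: tggagagagagAGGAAGTtgcctttgtcc
*Ctsg*, chr14:56102763-56102791, minus strand: agaggaagaaaAGGAAGTagtcacctgtt

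The element begins 84 bases before the start of *Elane*, 94 before *Prtn3*, 223 before *Mpo* and 206 before *Ctsg*, counted from the RefSeq starts. The GENCODE gene models start elsewhere for 3 of them, so that the element lies 19 bases before *Elane* and 20 before *Mpo* there, 206 before *Ctsg* again, and inside *Prtn3*. On either strand, AGGAAGT was found within 250 bases upstream in 4 of 4 azurophil genes, in 0 of 4 specific granule genes and in 1 of the 2 S100 genes (*S100a8*). It was found in 7.69% of all 32851 promoter windows. TTGCNNAA, a C/EBP-type sequence searched in the same way, was found in 0 of 4 azurophil genes, in 3 of 4 specific granule genes (*Ngp*, *Ltf*, *Lcn2*) and upstream of *S100a9*, against 9.56% of all windows. TATAAA was found upstream of *Ctsg* and *S100a8* only among the members, and in 12.4% of all windows. The 3 motifs were chosen after the sequences had been read, so these counts describe the members and test nothing. Several members are neighbors on GRCm38. *Elane* (ENSMUSG00000020125, 79886247 to 79888215) and *Prtn3* (ENSMUSG00000057729, 79874476 to 79883174) lie on chromosome 10, *Mpo* (ENSMUSG00000009350, 87793581 to 87804413) on chromosome 11 and *Ctsg* (ENSMUSG00000040314, 56099881 to 56102574) on chromosome 14. *Camp* (ENSMUSG00000038357, 109847379 to 109849617), *Ngp* (ENSMUSG00000032484, 110419747 to 110423012) and *Ltf* (ENSMUSG00000032496, 111019271 to 111042767) lie on chromosome 9 and *Lcn2* (ENSMUSG00000026822, 32384633 to 32388252) on chromosome 2. *S100a8* (ENSMUSG00000056054, 90668978 to 90670035) and *S100a9* (ENSMUSG00000056071, 90692632 to 90695721) lie on chromosome 3. On chromosome 10, 3073 bases separate the end of *Prtn3* from the start of *Elane*, *S100a8* and *S100a9* lie 22597 bases apart, and *Camp*, *Ngp* and *Ltf* fall within 1195388 bases. *Prtn3* overlaps *Plppr3* and *Mpo* overlaps *Gm11505*, both on the opposite strand.

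Of the 10747 control and 10512 *Smo* cKO barcodes, 10057 and 9507 were kept, with medians of 8367 and 9092 UMIs per cell. *Smo* in connective cells was at 18.8 and 12.2 CPM, a log2 ratio of *Smo* cKO over control of -0.62 (-0.73 to -0.51), while neutrophils held 1 and 0 *Smo* UMIs. The libraries shared 613 barcodes, 5.70% and 5.83% of their barcodes, with median depths of 842 and 30516 UMIs. 0 control and 1 *Smo* cKO neutrophil were among them, and leaving them out moved no result on neutrophils beyond its interval.

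Cells were classed by 18 lists of 8 marker genes, none of which holds a member. This gave 83 control neutrophils (0.83% of cells) and 126 *Smo* cKO neutrophils (1.33%), a difference of 0.50 percentage points (0.21 to 0.80). All 16 neutrophil markers were detected in both libraries, with *Retnlg* in 77.1% and 81.0% of the cells. The neutrophils were shallow, with medians of 1490 and 1796 UMIs. Neutrophils with the larger share of an early list, which includes *Cebpe*, *Fcnb* and *Ly6g*, numbered 34 and 41. Those with the larger share of a late list, which includes *Cxcr2*, *Il1r2* and *Retnlg*, numbered 44 and 72. Not all early-list markers followed this split. *Cebpe*, *Fcnb*, *Serpinb1a* and *Pglyrp1* were higher in early-list cells of both libraries. *Mmp8* went the other way, at 193 and 170 CPM in early-list and 399 and 825 CPM in late-list cells. For *Chil3* and *Cd177* the control interval of early-list over late-list cells included 0. The early-list share was 41.0% and 32.5%, and the difference of -8.42 points had an interval of -21.6 to 4.72, which includes 0 on counting error alone. The myeloid progenitor list, which includes *Kit*, *Cd34* and *Myb*, gated only 2 cells in each library.

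The 10 genes made up 19.7% of all UMIs in control neutrophils and 29.2% in *Smo* cKO neutrophils. Because UMIs count molecules at their 3′ ends, CPM was not divided by gene length. *S100a8*, the smaller subunit of calprotectin, was at 100904 and 144262 CPM. *S100a9*, its partner, was at 57171 and 87045 CPM. Both were found in nearly every neutrophil, in 98.8% and 97.6% of cells for *S100a8* and in 100% and 97.6% for *S100a9*. Connective cells, a class outside the blood lineages, had a *S100a8* UMI in 19.2% and 33.7% of cells at median depths of 11223 and 13856 UMIs. When every cell was thinned to 500 UMIs, these shares were 1.08% and 1.65%, against 98.8% and 96.8% of neutrophils.

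The specific granule genes came next. *Camp*, the precursor of the cathelicidin antimicrobial peptide, was at 14479 and 21908 CPM. *Ngp*, neutrophilic granule protein, was at 11632 and 24764 CPM. *Lcn2*, the siderophore-binding lipocalin, was at 3402 and 7104 CPM, and *Ltf*, the iron-binding lactoferrin, at 1257 and 2358 CPM. Their levels were spread widely over cells. The median control neutrophil had 28.5 *Ngp* UMIs per 10000 and the upper quartile 204, and the *Camp* medians were 8.55 and 27.6.

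The azurophil genes were not detected in most neutrophils, although 3 of the 4 had a higher level than *Ltf* in the control library. *Elane*, neutrophil elastase, was at 3212 and 1772 CPM. *Prtn3*, proteinase 3, was at 2393 and 1452 CPM. *Ctsg*, cathepsin G, was at 1358 and 594 CPM, and *Mpo*, which makes hypochlorous acid, at 1125 and 416 CPM. For each of these genes the median and the upper quartile over neutrophils were 0 in both libraries.

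**Figure D1:**
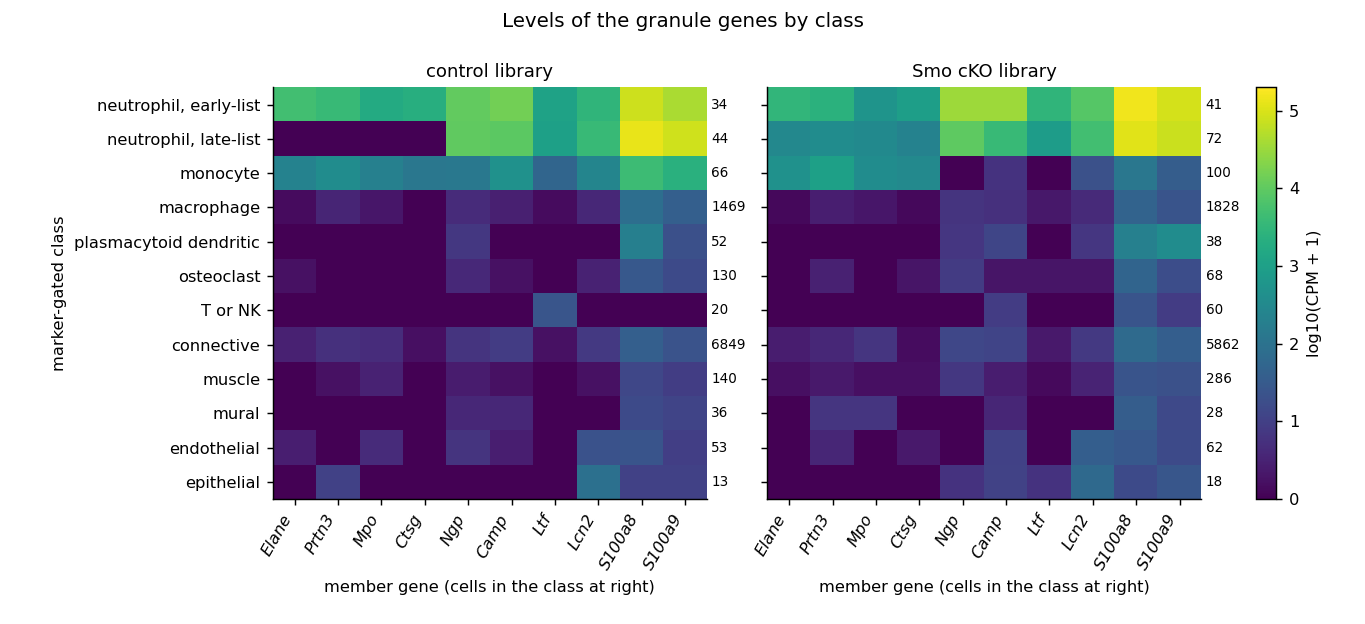
Heat map of the level of each gene (columns) in 12 marker-gated classes (rows) of each library, as log10(CPM + 1), with the number of cells at the right of each row. Azurophil genes are high in early-list neutrophils and at 0 in the 44 control late-list neutrophils, while the specific granule and S100 genes are high in both neutrophil rows.

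The azurophil genes were detected in a small set of neutrophils, and mostly in the same ones. Among control cells *Elane*, *Prtn3* and *Mpo* were each detected in 15 of 83 neutrophils, and these were the same 15 cells, 13 of which also held *Ctsg*. In the *Smo* cKO library *Elane* was detected in 16 of 126 neutrophils, *Prtn3* in 17, and *Mpo* and *Ctsg* in 12 each. The 12 cells with *Mpo* were the 12 with *Ctsg*, and all of them held *Elane*. The 3 cells richest in azurophil UMIs held 30.3% and 50.8% of these UMIs, so the azurophil levels of the class rest on few cells.

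Every azurophil UMI of the control neutrophils was in an early-list cell. The summed azurophil level was 12339 CPM in control early-list cells and 0 UMIs in the 44 control late-list cells, at least 227-fold higher when 3 counts are taken as the floor of the late-list sum. Thinned to 500 UMIs, *Elane* was found in 41.2% of control early-list cells (24.6% to 59.3%) and in 0 of 44 late-list cells, whose interval reached 8.04%. In the *Smo* cKO library the sum was 6935 CPM in early-list and 1208 CPM in late-list cells, a log2 ratio of 2.52 (2.28 to 2.77). All 158 azurophil UMIs of the *Smo* cKO late-list cells were in 2 of the 72 cells, and 154 of them were in 1 cell of 12438 UMIs that had 1 S100 UMI. Without that cell the late-list sum was 33.8 CPM from 4 UMIs, and the log2 ratio of early-list over late-list cells was 7.68 (6.32 to 9.56).

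The specific granule genes were found in both kinds of neutrophils. *Camp* was 1.62-fold higher in early-list than in late-list cells of the control and 8.59-fold higher in the *Smo* cKO library. For *Ngp* the early-list level was 1.06-fold the late-list level in the control, with a log2 ratio of 0.09 (-0.05 to 0.23), and 3.42-fold in the *Smo* cKO library. Thinned to 500 UMIs, *Lcn2* was detected in 47.7% and 65.3% of late-list cells, and *Camp* in 15.9% and 29.2%. In the control late-list cells 3 cells held 77.3% of the *Camp* UMIs and 58.4% of the *Ngp* UMIs. Per 10000 UMIs, the control medians over cells were 102 in early-list and 0 in late-list cells for *Ngp*, and 69.6 and 0 for *Camp*. The medians were closer for *Lcn2*, at 18.4 and 15.5, and were both 0 for *Ltf*. Thinned to 500 UMIs, *Ngp* was detected in 67.6% of control early-list and 43.2% of control late-list cells. The near-equal *Ngp* levels of the control thus do not describe the typical cell.

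In summed levels calprotectin had a different order in each library. *S100a8* was 1.69-fold higher in late-list than in early-list cells of the control and 1.38-fold higher in early-list cells of the *Smo* cKO library. *S100a9* was 1.92-fold higher in control late-list cells and 1.26-fold higher in *Smo* cKO early-list cells. Each cell counts in these levels by its UMIs, and the control medians over cells were closer. Per 10000 UMIs they were 1077 in early-list and 1232 in late-list cells for *S100a8*, and 677 and 738 for *S100a9*. The control upper quartiles had the opposite order, at 2139 and 1871 for *S100a8* and 1237 and 989 for *S100a9*. The control order thus depends on the measure. The *Smo* cKO medians kept the order, at 2062 and 1490 for *S100a8* and 1141 and 964 for *S100a9*. The difference in order between the libraries was not tested, as each is 1 sample.

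To ask whether early and late products occur in the same cell, co-detection was measured after thinning each neutrophil to 500 UMIs. At least 1 azurophil and 1 specific granule UMI were found in 12 of 83 control neutrophils (14.5%, 7.70% to 23.9%) and in 11 of 126 *Smo* cKO neutrophils (8.73%, 4.44% to 15.1%). The product of the separate shares was 13.1% and 8.52%. Azurophil UMIs without specific granule UMIs were found in 3 and 2 neutrophils, and specific granule UMIs without azurophil UMIs in 48 and 93. At full depth 14 of the 15 azurophil-positive control neutrophils and all 19 of the *Smo* cKO neutrophils also had a specific granule UMI. The early list of the gate holds the specific granule genes *Pglyrp1*, *Chil3*, *Cd177* and *Mmp8*, so this co-detection is not independent of the gate. Azurophil-bearing cells outside the neutrophil gate, described below, are not in these counts. The libraries differed by -5.73 points (-15.6 to 2.91), and by -9.62 points (-22.7 to 2.12) when cells were thinned to 1000 UMIs, and both intervals include 0 on counting error alone. Of the single members, *Camp* was present in 14 of the 15 control neutrophils with *Elane*, *Ngp* in 13, *Lcn2* in 10 and *Ltf* in only 1. Over all control neutrophils *Ltf* was present in 26 of 83. In the *Smo* cKO library *Camp* and *Lcn2* were each present in 14 of the 16 neutrophils with *Elane*, *Ngp* in 13 and *Ltf* in 6.

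Between genotypes, the summed levels of the specific granule and S100 genes were higher in *Smo* cKO neutrophils and those of the azurophil genes lower. Each cell counts in these sums by its UMIs, and the summed levels of the late-list cells, given below, mostly differed in direction. The medians over late-list cells, also given below, were not lower in the *Smo* cKO library for any member. For the azurophil sum the log2 ratio of *Smo* cKO over control was -0.93 (-1.04 to -0.83), for the specific granule sum 0.87 (0.83 to 0.91) and for the S100 sum 0.55 (0.53 to 0.57). At the 2-fold rule, *Ngp* (1.09) and *Lcn2* (1.06) of the 10 members were higher, while 5.26% of the 2071 genes at 50 CPM or more were. *Mpo* (-1.43) and *Ctsg* (-1.19) were lower, while 9.22% of those genes were. The median log2 ratio was 0.56 over the members and -0.13 over all genes tested. When ratios were taken relative to that median, 156 genes were higher and 143 lower in place of 109 and 191, and each member kept its direction. Without cells of over 2000 genes, the study's own limit, 82 and 122 neutrophils remained and *Ctsg* went to -2.58, *Mpo* to -2.35, *Elane* to -1.25 and *Prtn3* to -1.15, the last 2 then also past 2-fold lower, and *Ltf* went from 0.91 to 1.06, past 2-fold higher. Without the late-list cell of 154 azurophil UMIs, described above, the azurophil sum was at -1.04 and *Mpo* at -1.84. Over all kept cells the azurophil direction was the opposite, with a sum of 31.5 and 41.1 CPM and a log2 ratio of 0.38 (0.32 to 0.45). *Prtn3* was at 0.56, *Mpo* at 0.54, *Ctsg* at 0.27 and *Elane* at 0.11 (-0.01 to 0.23) over all kept cells, where the specific granule sum was at 1.41 and the S100 sum at 1.13.

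**Figure D2:**
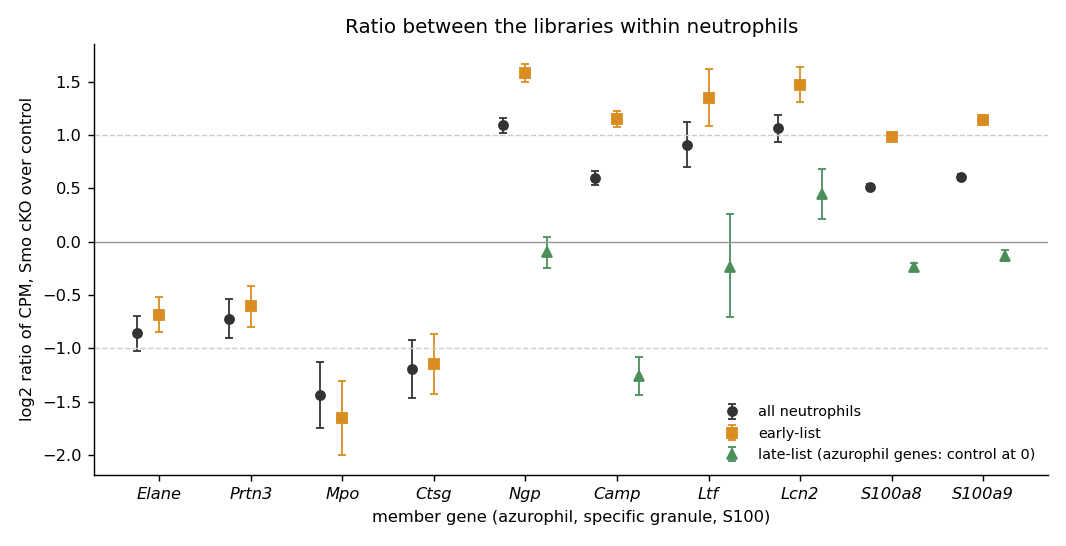
Log2 ratio of CPM in *Smo* cKO over control (vertical axis) for each gene in all, early-list and late-list neutrophils, with 95% Poisson intervals and dashed lines at 2-fold. Azurophil genes lie below 0 and the others above 0 in all and in early-list neutrophils, while of the late-list values only that of *Lcn2* lies above 0, with no azurophil value since the control holds 0 UMIs.

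In summed levels the early-list cells had the same directions as all neutrophils, and the late-list cells mostly did not. In early-list cells *Ngp* (1.58), *Lcn2* (1.47), *Ltf* (1.35), *Camp* (1.15) and *S100a9* (1.14) were at least 2-fold higher, 5 of 10 members against 8.31% of 2046 genes, and *S100a8* was at 0.98. *Mpo* (-1.65) and *Ctsg* (-1.14) were at least 2-fold lower, against 16.1% of genes, with *Elane* at -0.68 and *Prtn3* at -0.61. In late-list cells *S100a8* was at -0.24 (-0.28 to -0.20), *Ngp* at -0.10 (-0.24 to 0.05) and *Camp* at -1.26 (-1.44 to -1.08). *Camp* was the only member at least 2-fold lower there, against 18.7% of 2543 genes. Its control level rested on few cells, as 3 late-list cells held 77.3% of the UMIs. At full depth *Camp* was detected in 8 of 44 control and 27 of 72 *Smo* cKO late-list cells, so the ratio does not describe the typical cell. Medians over late-list cells did not fall for any member. Per 10000 UMIs they were 1232 and 1490 for *S100a8*, 738 and 964 for *S100a9*, and 0 and 15.6 for *Ngp*. They were 15.5 and 40.0 for *Lcn2*, and 0 in both libraries for *Camp* and *Ltf*. The lower late-list sums of *S100a8*, *S100a9* and *Ngp* thus do not describe the typical cell either. The 4 azurophil genes counted as higher, against 20.5% of genes, but they reached 50 CPM only in the *Smo* cKO library and almost wholly through the 1 late-list cell with 154 azurophil UMIs, so nothing is read from that count. Early-list *Smo* cKO cells were also deeper, with a median of 4115 against 2748 UMIs. In neutrophils the monocyte list summed to 3999 and 2161 CPM, with 8 and 7 of its 8 markers detected, and the myeloid progenitor list to 850.5 and 433 CPM, with 4 and 6 of 8 detected and *Flt3* and *Igll1* at 0 in both. The connective list summed to 481 and 411 CPM. The part of these in the ratios was not tested, and fewer azurophil-bearing cells and less RNA per such cell cannot be told apart in the class sums.

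**Figure D3:**
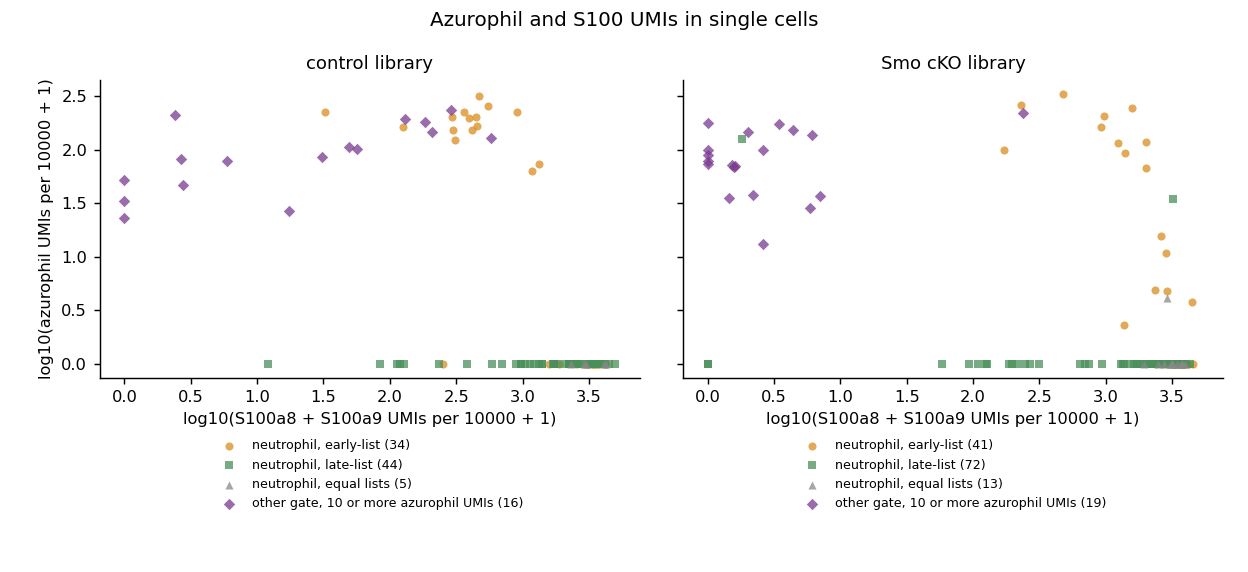
Each point is 1 cell, a neutrophil or any other cell with at least 10 azurophil UMIs, with log10(UMIs per 10000 + 1) of *S100a8* plus *S100a9* on the horizontal and of the 4 azurophil genes on the vertical axis. Azurophil-bearing cells with many S100 UMIs are mostly early-list neutrophils (orange) and those with few are from other gates (purple) but for 1 late-list cell (green), and these were 8 of 31 control and 19 of 30 *Smo* cKO azurophil-rich cells.

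Many azurophil UMIs lay outside the neutrophil gate. Neutrophils held 73.6% and 86.5% of all *Camp* UMIs but 42.2% and 30.6% of *Prtn3* and 30.8% and 13.8% of *Mpo* UMIs. Connective cells held 49.9% and 48.7% of the *Mpo* UMIs, and whether these belong to *Mpo* or to the gene on the opposite strand was not tested. *Elane*, with no such overlap, had 55.6% and 50.2% of its UMIs in neutrophils. Cells with at least 10 azurophil UMIs, a limit chosen after the data were seen, numbered 31 and 30 and held 78.0% and 81.8% of all azurophil UMIs. Of these azurophil-rich cells, 15 and 11 were gated as neutrophils, 4 and 8 as monocytes or macrophages, and 1 and 2 as progenitors. A further 3 and 2 were gated as connective and 1 and 0 as mast cells or basophils. Ties numbered 5 and 7, and 2 and 0 had too few markers.

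The azurophil-rich cells fell apart by their calprotectin, at a limit of 10 S100 UMIs that was also chosen after the data were seen. The split and its interval are thus descriptions. Among control cells 23 of 31 had at least 10 S100 UMIs and 8 (25.8%) had fewer. Among *Smo* cKO cells 11 had at least 10 and 19 of 30 (63.3%) had fewer, a difference of 37.5 points (12.6 to 56.6). Only 2 such cells in each library had between 5 and 20 S100 UMIs. The shares depend on the upper gene limit. With cells of over 2000 genes left out, few S100 UMIs were found in 6 of 25 control and 1 of 10 *Smo* cKO azurophil-rich cells, and the difference turned to -14.0 points (-35.1 to 18.9).

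Both kinds of azurophil-rich cells carried all 4 azurophil genes. In those with few S100 UMIs, *Prtn3* was at 2208 and 3752 CPM and *Elane* at 2536 and 2139 CPM. In those with many, *Elane* was at 6689 and 7955 CPM. *Camp* was at 4729.5 and 16368 CPM in the cells with many S100 UMIs and had 0 UMIs in the cells with few, in both libraries. *Ngp* had 0 and 2 UMIs in the latter. *Ltf*, with 2 and 4 UMIs in the cells with many S100 UMIs and 0 in the others, was nearly absent from both.

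Other genes, picked after the cells were seen, also differed. *Fcnb*, a ficolin of early granulocytes, was found in 19 of 23 control and 10 of 11 *Smo* cKO cells with many S100 UMIs, and in 1 of 8 and 0 of 19 cells with few. *Ccr2*, the chemokine receptor of classical monocytes, was found in 2 of 23 and 0 of 11 cells with many, and in 5 of 8 and 15 of 19 with few. *Cd34*, a surface protein of progenitors, was found in 1 and 0 cells with many and in 4 and 12 cells with few. *Ms4a3*, a marker of granulocyte and monocyte progenitors, was found in both, in 21 and 11 cells with many and in 5 and 15 with few. *Cd34* and *Ms4a3* are in the myeloid progenitor list. The median number of markers of that list was 3 and 2 in cells with many and 1.5 and 4 in cells with few. The list as a whole thus had opposite orders in the control and *Smo* cKO libraries. Median depth was 6018 and 6818 UMIs in the cells with many S100 UMIs and 5608 and 12388 UMIs in those with few. The part of depth in these differences was not tested.

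In the monocyte-list cells the levels of the members rested on few cells. Their *S100a8* level was 4338 CPM in 66 control cells and 126 CPM in 100 *Smo* cKO cells, and 3 control cells held 97.8% of the control UMIs. *Camp* had 85 control UMIs, all in 1 cell. *Prtn3* was at 372 and 1019.6 CPM over these classes, with its UMIs in 7 control and 25 *Smo* cKO cells. *Mpo* was at 206 and 374 CPM, *Elane* at 223 and 490 CPM and *Ctsg* at 126 and 306 CPM. These *Smo* cKO levels were 89.9% of the neutrophil level for *Mpo*, 70.2% for *Prtn3*, 51.6% for *Ctsg* and 27.6% for *Elane*. They rest on few cells, as the top 3 held 82.7% and 59.9% of the azurophil UMIs of the monocyte-list cells. The 2 and 2 cells of the progenitor gate held *Elane* at 3758 and 2065 CPM, *Prtn3* at 2638 and 4432 CPM, *Mpo* at 1039 and 2619 CPM and *Ctsg* at 1279 and 1763 CPM. Their azurophil sum had a log2 ratio of 0.32 (-0.02 to 0.67), which turned to -0.43 with 4 markers required and to -0.58 with ties counted as progenitors, so it gives no direction. In macrophage-list cells each azurophil gene was at or under 2.55 CPM in both libraries.

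In connective cells every member was found at a low level. *S100a8* there was at 39.1 and 66.2 CPM, 0.039% and 0.046% of its neutrophil level. Most members stood near this share, such as *Camp* at 0.054% and 0.051% and *Ngp* at 0.045% and 0.049%. *Mpo* was higher at 0.337% and 1.36%, as was *Prtn3* at 0.182% and 0.194%. *Lcn2* was at 0.189% and 0.093%, and in the *Smo* cKO library *Elane* at 0.093% and *Ctsg* at 0.084% were close to it. These levels were not even over cells. The top 3 connective cells held 21.0% and 40.7% of the *S100a8* UMIs, 34.0% and 51.5% of *Camp* and 39.1% and 51.8% of *Ngp*.

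*Mpo* and *Prtn3* UMIs in connective cells were spread over many cells. *Mpo* had 345 UMIs in 279 control cells and 522 UMIs in 436 *Smo* cKO cells, with 12.2% and 8.81% of them in the top 3 cells. *Elane* had 185 and 152 UMIs in 57 cells of each library, with 70.3% and 64.5% in the top 3 cells. *Prtn3* lay between, with 396 UMIs in 263 control and 260 UMIs in 133 *Smo* cKO cells. *Mpo* and *Prtn3* are the 2 members that overlap a gene on the opposite strand, and the part of that overlap was not tested. Between genotypes, the log2 ratio of *Mpo* in connective cells was 0.58 (0.38 to 0.78), beside -1.43 in neutrophils. For *Prtn3* it was -0.63 (-0.86 to -0.40), beside -0.72 in neutrophils.

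*Lcn2* is also made by epithelia and inflamed stroma as an acute-phase protein. Connective cells held 42.3% of its control UMIs and 18.5% of its *Smo* cKO UMIs. The connective level was 6.42 and 6.60 CPM, a log2 ratio of 0.04 (-0.12 to 0.21), which went to 1.01 when cells of over 2000 genes were left out. These UMIs were in 329 and 262 connective cells, and the top 3 cells held 11.5% and 28.9% of them. Epithelial cells, 13 and 18 in number, had 87.5 and 64.0 CPM from 9 and 13 UMIs. Endothelial cells had 20.7 and 37.7 CPM from 12 and 28 UMIs. In endothelial cells this was 0.609% and 0.531% of the neutrophil level, while *S100a8* was at 0.022% and 0.020% in the same cells.

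**Figure D4:**
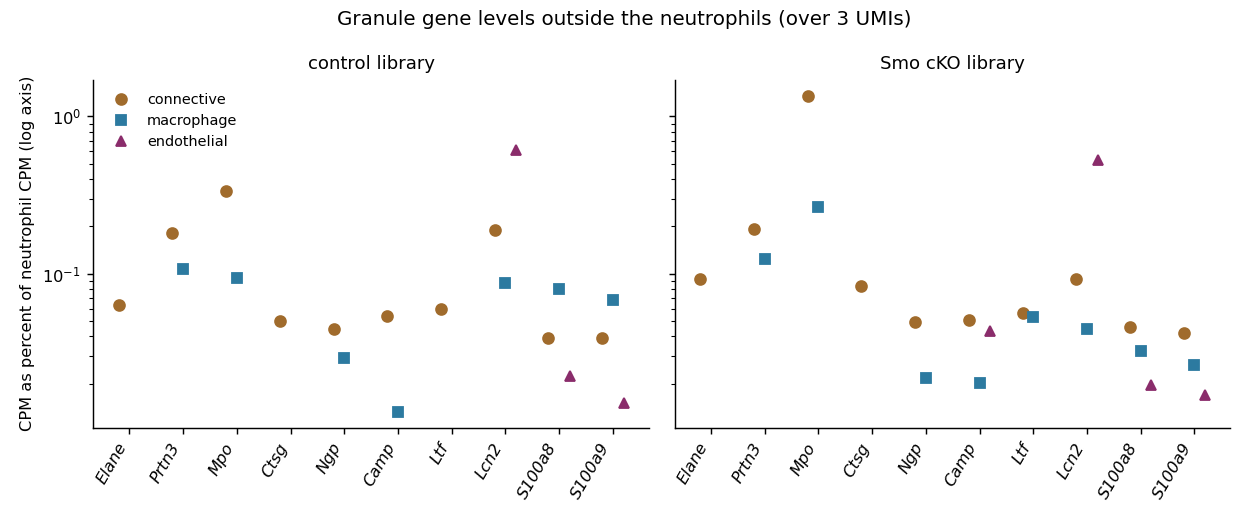
Level of each gene in connective, macrophage-list and endothelial cells as percent of its neutrophil CPM (log axis), for genes with over 3 UMIs in the class. In connective cells *S100a8* sits at 0.039% and 0.046%, while *Mpo* at 0.337% and 1.36% and, in endothelial cells, *Lcn2* at 0.609% and 0.531% stand above the other genes.

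The gate was also read against calprotectin itself. Cells with over 2% of their UMIs on the S100 pair numbered 118 and 136, of which 76 and 115 were gated as neutrophils. A further 28 and 12 had too few markers for any class, with medians of 654.5 and 823.5 UMIs. 7 and 11 gated neutrophils were at or under 2%. The gate thus held a smaller part of the calprotectin-rich cells of the control library, and its part in the difference in neutrophil share was not tested.

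Related genes were taken from a list of 45, of which 34 reached 50 CPM in neutrophils. None was at least 2-fold higher in *Smo* cKO neutrophils and 3 (8.82%) were lower, close to the 9.22% of all genes, with a median log2 ratio of 0.18. *Slpi*, an inhibitor of elastase and cathepsin G, was at 1395 and 259 CPM, a log2 ratio of -2.43 (-2.79 to -2.08). *Cebpb*, a transcription factor of emergency granulopoiesis, was at 127 and 33.8 CPM, and *Cxcr4*, which retains neutrophils in the marrow, at 106 and 42.2 CPM, from 24 and 20 control UMIs. Of 8 genes of azurophil content and early myeloid cells, 6 reached 50 CPM and 4 were higher in early-list than late-list cells of both libraries, with intervals above 0. These 4, *Ms4a3*, *Prss57*, *Serpinb1a* and *Fcnb*, are all marker genes of the gates, and *Serpinb1a* and *Fcnb* are in the early list itself, so their order is no independent measure. The median log2 ratio between genotypes was -0.05 for these 6 and 0.47 for 9 of 10 further specific granule genes. Of the latter, *Pglyrp1*, a peptidoglycan-binding protein, was at 1463 and 2434 CPM and *Cd177*, a surface protein of specific granules, at 169 and 329 CPM. These genes, with *Chil3* and *Mmp8* of the same set, are in the early list, so the set is not independent of the gate. All 5 gelatinase granule genes at 50 CPM were higher in late-list than in early-list cells of both libraries, with intervals below 0. *Retnlg* was at 22246 and 26535 CPM in late-list cells and at 7342 and 5960.3 CPM in early-list cells, and this gene and *Mmp9* are themselves in the late list.

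Over 20 profiles, of 10 classes by library, the genes most like the azurophil sum were *Ms4a3* (Pearson r of 0.94), *Gm1604a*, *Stfa3*, *Ap3s1* and *Fcor*, among 5674 genes. *Stfa3* rests on 9 and 25 neutrophil UMIs. It was at 56.4 and 72.2 CPM in early-list and at 0 and 84.1 CPM in late-list cells, so its order differed between the libraries. *Ap3s1*, a subunit of the adaptor complex that sorts cargo to lysosome-related organelles, was at 887 and 717 CPM in early-list and at 236 and 321 CPM in late-list cells. The genes most like the sum of *Ngp*, *Camp* and *Ltf* were *Pram1* (r of 0.98), *Cd177*, *Wfdc21*, *Rab44* and *Mrgpra2b*. *Wfdc21* was at 4199 and 6997 CPM in early-list and at 5851 and 5976 CPM in late-list cells. The profiles share libraries and *Ms4a3* and *Cd177* are gate genes, so these correlations are descriptions.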

How the data were processed

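The authors aligned 10x Chromium reads to mm10 with Cell Ranger 3.0.2, as the submitters' processing notes also give, and deposited raw UMI counts per gene and cell barcode, not normalized. Here 1 control and 1 *Smo* cKO library were used, with 105367110 and 112700220 UMIs and at least 500 UMIs per barcode. Cells with at least 200 genes and under 10% of UMIs on the 13 mt- genes were kept. The study's upper limit of 2000 genes was an alternative, since 58.0% and 59.4% of the kept cells exceed it.

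Each of 18 lists holds 8 markers. A cell was assigned by the list of which it had most markers, at least 3, and ties were left unassigned. Cells were thinned to 500 UMIs for detected shares. A gene counted as apart at 2-fold, with 50 CPM or more in at least 1 library. The early and late lists form 1 neutrophil class. No doublet caller was run, and mixed-marker cells and cells of over 2000 genes were left out as alternatives. CPM was summed per class. Ratios have exact Poisson intervals, shares Clopper-Pearson intervals and differences Newcombe intervals. A count of 0 was given a floor of 3 counts per library and class. The genes named are the members, the listed related genes at 50 CPM or more, and the 5 with the highest Pearson r of log2(CPM + 1) to the azurophil sum and to the *Ngp*, *Camp* and *Ltf* sum, except genes said to be picked later. Members and lists were chosen with earlier results of these data known. Coordinates are on GRCm38 (GENCODE vM21) and promoters from RefSeq, which held all 10 members. Python 3.11.15, numpy 2.4.6, scipy 1.17.1, pandas 2.3.3 and matplotlib 3.10.9 were used, and the scripts were tested on simulated data.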

Additional observations from a re-analysis of the deposited data

How the results depend on the processing

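Of 167 alternative values, 119 stayed close to the reported value, 47 moved and 1 reversed, and for the single members in neutrophils 58 of 84 stayed, 26 moved and 0 reversed. Some values whose reported interval included 0 also changed sign, but were counted as moved or close. These were the azurophil sum in progenitors, the progenitor share of cells and *Lcn2* in connective cells. In log2 ratios in neutrophils (*Smo* cKO over control), a limit of 2000 genes per cell gave -1.49 for the azurophil sum, 0.99 for the specific granule sum and 0.65 for the S100 sum. Leaving the members out of the total gave -0.75, 1.05 and 0.73, and scaling by the median gene ratio gave -0.80, 1.00 and 0.68. Requiring 4 markers gave 0.79 for the specific granule and 0.62 for the S100 sum, leaving out mixed-marker cells gave 0.92 and 0.63, and requiring 2 markers gave 0.52 for the S100 sum. Without the late-list cell of 154 azurophil UMIs the azurophil sum was -1.04. The azurophil sum in progenitors was -0.43 with 4 markers and -0.58 with ties counted, and with the 2000-gene limit no *Smo* cKO progenitor was left. With that limit *Lcn2* in connective cells was at 1.01, the neutrophil share differed by 1.22 points and the share of azurophil-rich cells with few S100 UMIs by -14.0 points. Genes at least 2-fold apart numbered 1103 at 20 CPM and 4981 at any UMI, against 300.0 at 50 CPM. The causes were not tested. Leaving out shared barcodes or that late-list cell, counting ties as progenitors and the alternatives for azurophil-rich cells were chosen after seeing the data. No paired analysis was possible because each genotype has 1 library. Pooled animals and 1 library a genotype limit every comparison, and 83 and 126 shallow neutrophils limit rare transcripts most.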

Other observations

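Genes that mark the steps of granulocyte maturation were read in the same neutrophils, with the control library first. *Ms4a3*, a marker of granulocyte and monocyte progenitors, was at 927 and 500.1 CPM in early-list cells and at 0 and 99.4 CPM in late-list cells. *Cebpe*, a transcription factor needed for specific granules, was at 306 and 454 CPM in early-list and at 18.1 and 61.1 CPM in late-list cells, and is in the early list. *Cxcr2*, the receptor with which neutrophils leave the marrow, was at 0 and 25.8 CPM in early-list and at 308 and 206 CPM in late-list cells, and is in the late list. *Lyz2*, lysozyme, was at 1942 and 4202 CPM in early-list and at 3025 and 2155 CPM in late-list cells, so that its order differed between the libraries, which was not tested. The 5 stefins, near-identical copies whose separate counts are uncertain, all reached 50 CPM and had a median log2 ratio of 0.57 between genotypes.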
